A study of Mus musculus with 2 samples.

Results

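The genes described here encode 9 transcription factors of epithelia, from 3 families. They are the Ets factors Elf3, Elf5, Ehf and Spdef, the Grainyhead-like factors Grhl1, Grhl2 and Grhl3, and the zinc finger factors Ovol1 and Ovol2. The genes were picked by name from the array design, by a rule that uses no threshold on a measured value, and all of their probes were taken. They were 9 of 29923 genes and 11 of 39429 probes on the arrays, and all 9 symbols matched a RefSeq gene. The question was whether the RNA of these factors differs in ureters whose epithelium lacks Pparg function.

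Total RNA of ureters dissected at E18.5 was compared on 2 two-colour arrays. The Pparg-cKO embryos were labelled Pax2-cre/+; Pparg(fl/fl), and the control embryos Pparg(fl/?), with at least 1 floxed allele and the other allele not named. Per the study's methods, controls were littermates without cre, all mice were on the outbred NMRI background, and the floxed exons are lost where cre acts, leaving a truncated protein without function. The Pax2-cre transgene was used to delete Pparg in the ureteric epithelium, which is 1 tissue of the ureter beside muscle and connective tissue. Each RNA was a pool of embryos of 1 sex: replicate 1 held a female Pparg-cKO pool against a female control pool, and replicate 2 the male pools. The dyes were exchanged between the arrays. As a result sex, dye orientation and array cannot be told apart, and any spread over the 2 arrays contains all of them. The ureter was taken whole, and in such bulk RNA fewer cells of a type and less RNA per cell cannot be told apart.

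Signs are those of the deposited value table, whose columns are titled Pparg-cKO against control. The dye labels place the control in red on the female array and the Pparg-cKO pool in red on the male array, and the table runs the other way on each. Across probes, table values and log2 red over green ratios had a Pearson r of 0.989 (female array) and -0.993 (male array). The table was followed because the study describes its tissue sections, a separate assay, in that direction: luminal genes such as Krt20 and Upk1a were weaker in the mutant, and the shortened Pparg transcript was stronger. If the dye labels hold, each word "higher" or "lower" and each pool name below is exchanged and each order by signed ratio runs the other way, while sizes and p-values stay. The targeted gene itself, Pparg, had log2 ratios of 0.98 and 0.96, with an adjusted p of 0.0373 in limma, in the deposited direction. Whether its probe reads the floxed exons was not analysed here.

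Grainyhead-like factors bind DNA in epithelial cells, where they keep junction genes active and serve barrier formation. Grhl3 is best known for the closure of the skin barrier and for the large luminal umbrella cells of the bladder urothelium. The epithelial branch of the Ets family binds sites with a GGAA core. Elf3 is known from differentiating surface epithelia including urothelium, Elf5 from mammary alveoli and trophoblast, Ehf from mucosal and skin epithelia, and Spdef from goblet cells. Ovol1 and Ovol2 are mostly repressors and hold back mesenchymal genes in epithelial cells. PPARG is a nuclear receptor that drives late differentiation of the urothelium.

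The array reads each gene through probes of 60 bases, and the signal of a gene is the signal at that stretch of its transcript. The 5 probes on which the account of Grhl2, Ehf and Grhl3 turns are shown because 2 of these genes have a probe at each of 2 places, and because the Grhl3 probe gave opposite ratios on the arrays. Positions are those of the array design on mouse build mm9. Sequences run 5′ to 3′ along the transcript, in lower case throughout, and for the most 3′ probe of a gene 30 of the 60 bases are given.
Grhl2 upstream probe, chr15:37239426-37239485, plus strand: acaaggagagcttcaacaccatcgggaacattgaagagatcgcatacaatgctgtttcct
Grhl2 3′ probe, chr15:37293139-37293198, plus strand, first 30 bases: ccctttctgaaggacaagcaggggagactc
Ehf upstream probe, chr2:103114043-103114102, minus strand: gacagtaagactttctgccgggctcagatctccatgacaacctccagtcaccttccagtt
Ehf 3′ probe, chr2:103106827-103106886, minus strand, first 30 bases: ggattctgatcaatgaagaaccggacgtaa
Grhl3 probe, chr4:135097991-135098050, minus strand, first 30 bases: ggaacaaatacccttgccacctactgttgt
The Grhl2 probes start 53713 bases apart and the Ehf probes 7216 bases apart. Which exons the probes lie in was not analysed here. The other probes lie at chr1:137150328-137150387 (Elf3, minus strand), chr2:103290958-103291017 (Elf5, plus), chr17:27851401-27851460 (Spdef, minus), chr12:25302095-25302154 (Grhl1, plus), chr19:5549209-5549268 (Ovol1, minus) and chr2:144131071-144131130 (Ovol2, minus).

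No factor gene passed the test over all genes. In limma, with Benjamini-Hochberg adjustment over 22499 genes, 0 of the 9 had an adjusted p under 0.05, where 169 genes, or 0.751% of all tested, did. By the fold rule, which asks for at least 1.5-fold in the same direction on both arrays with the brighter channel at 100 signal units or more on each, 0 of the 6 factor genes bright enough passed, against 1.84% of 14015 genes. Elf3, Elf5 and Grhl2 had an unadjusted p under 0.05 with a higher mean in Pparg-cKO pools, as did 4.31% of all genes tested. Only 2 of the 9 had an unadjusted p under 0.05 with median centring, the median over all probes, no filter on dim probes or the deposited value table. Elf3, Elf5, Grhl2 and Ovol1 were higher on both arrays, a pattern seen in 26.6% of genes. With median centring 6 of the 9 were, since Ehf (0.11 and 0.04) and Ovol2 (0.04 and 0.04) joined them. None of the 9 was lower on both arrays, where 26.2% of genes were. The median of the 9 mean log2 ratios was 0.14, the female median was 0.14 and the male median 0.45, beside 0.01, -0.01 and 0.01 over all genes tested.

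All 9 genes were well above background in both channels of both arrays. The processed signal, corrected for background and balanced between dyes by the software of the scanner, is in arbitrary units. It can be set between the pools of an array for 1 probe, but not between probes. It was not scaled between the arrays, so that an order over all 4 pools is only a description. Sums over a list mix probes, and the brightest probes weigh most in them. The log2 ratios come from another background correction and from loess, so that a small ratio can differ in sign from the signals beside it. Elf5, Spdef and Ovol1 stayed below 100 units in all 4 pools, and the other factor genes lay between 411 and 3564 units by their brightest probe.

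**Figure D1:**
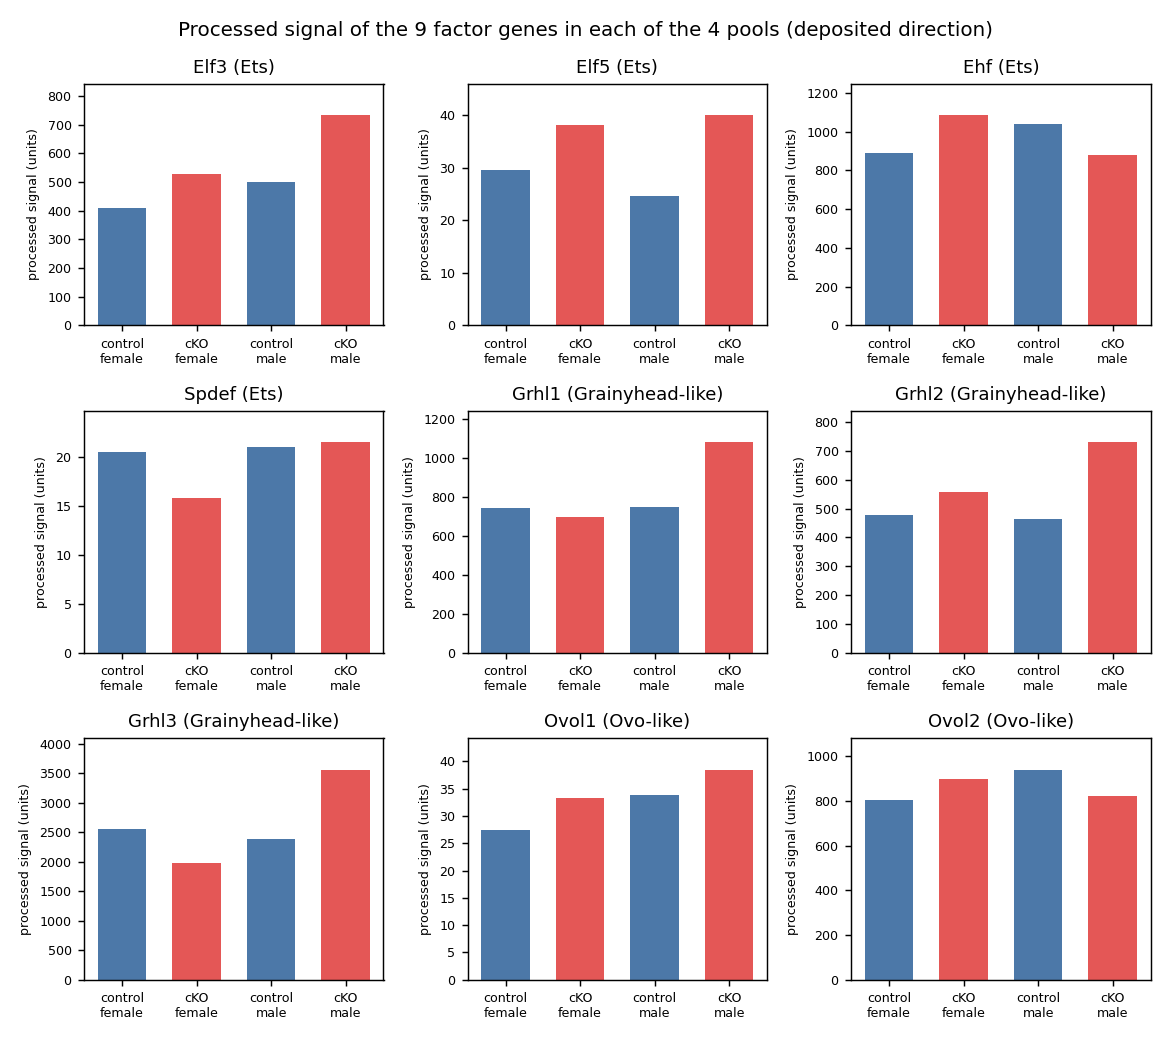
Processed signal (arbitrary units, linear axes from 0) of each factor gene in the control female, Pparg-cKO female, control male and Pparg-cKO male pool, 1 panel per gene with its own scale and no error bars since each bar is 1 pool. Elf3, Elf5, Grhl2 and Ovol1 are higher in the Pparg-cKO pool of both sexes, and Grhl3 is lower in the female and higher in the male one.

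Of the epithelial Ets factors, Elf3 had the mean ratio farthest from 0 of the 9 genes, although Elf5 exceeded it with scanner-processed signals (0.53 against 0.46) and in the deposited value table (0.60 against 0.46). Its signal was 411 in the control female and 528 in the Pparg-cKO female pool, and 501 in the control male and 734 in the Pparg-cKO male pool. On each array the Pparg-cKO pool was above the control pool, a direction that 26.6% of genes tested had by their ratios. The female array gave a log2 ratio of 0.33 and the male array 0.60, and the mean was 0.46 ± 0.19 (SD, n = 2 arrays), or 1.38-fold. The 95% interval of limma ran from 1.11-fold to 1.70-fold, and the adjusted p was 0.340. In the deposited direction 552 genes, or 2.45% of those tested, had a higher mean; by the dye labels these genes would have a lower one. On the male array the ratio was 1.51-fold, just past the 1.5-fold line.

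Elf5 was dim, with 29.5 and 38.0 units in the control and Pparg-cKO female pools and 24.7 and 40.0 units in the male pools. The Pparg-cKO pool again lay above the control pool on each array. Its log2 ratios were 0.23 and 0.45, the mean was 0.34 ± 0.16 (SD, n = 2 arrays), and the adjusted p in limma was 0.507. At such signals the offset added in background correction pulls ratios towards 0. Its mean log2 ratio was larger under both settings named for Elf3. On tissue sections at E18.5 the study detected no change of Elf5 RNA. The milk protein genes, which Elf5 is known to activate in the mammary gland, were mostly near background, with 1 of 5 tested (Csn3) at a mean log2 ratio of -0.13.

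Ehf lies near Elf5 on chromosome 2 and did not have its pattern. The brighter, 3′ probe gave 890 and 1085 units in the control and Pparg-cKO female pools and 1039 and 877 units in the male pools. The highest value was the Pparg-cKO female pool and the lowest the Pparg-cKO male pool, with both controls between. The log2 ratios were 0.19 and -0.20, with a mean of -0.00500 and a 95% interval from -0.35 to 0.34. The adjusted p in limma was 0.998. The upstream probe gave 435 and 474 units in the female and 434 and 409 units in the male pools, with log2 ratios of 0.12 and 0.02. The male signals were thus lower in the Pparg-cKO pool while the male ratio was just above 0. The means of the probes differed by 0.07 on the log2 scale.

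Spdef, the factor of goblet and other secretory cells, was dim as well. Its signals were 20.5 and 15.8 units in the control and Pparg-cKO female pools and 21.0 and 21.5 units in the male pools. The Pparg-cKO female pool stood below the other 3, which lay within 1 unit of each other. Its mean ratio was -0.08 ± 0.11 on the log2 scale (SD, n = 2 arrays), with an adjusted p in limma of 0.941. Among goblet and secretory genes, 1 of 5 tested passed the test: Agr2, a disulfide isomerase of mucus-secreting cells, was higher at 3.92-fold with an adjusted p of 0.00833. Creb3l1, a factor of secretory capacity, had log2 ratios of -0.05 and 0.77, with an adjusted p of 0.744 in limma. Muc2 and Muc5b, which encode secreted mucins, had mean log2 ratios of 0.14 and 0.04. Foxa3, Tff2 and Spink4 were not well above background and were not tested.

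Of the Grainyhead-like factors, Grhl2 had the ratio farthest from 0 of any factor gene on the male array, except that Elf5 exceeded it there with scanner-processed signals (0.69 against 0.66) and in the deposited value table (0.77 against 0.66), and that Elf3 did with the median over all probes (0.60 against 0.57). Its brighter, 3′ probe gave 478 and 557 units in the control and Pparg-cKO female pools and 463 and 730 units in the male pools. On each array the Pparg-cKO pool lay above its control pool, by more in the male pair. The log2 ratio was 0.14 for the female pair and 0.77 for the male pair, or 1.71-fold. The mean was 0.46 ± 0.44 (SD, n = 2 arrays), with a 95% interval from 0.01 to 0.90 and an adjusted p in limma of 0.581. The SD was close to the mean itself. The upstream probe, at 28.2 and 28.4 units in the female and 35.6 and 50.3 units in the male pools, gave log2 ratios of 0.03 and 0.37. Both probes thus had the larger ratio on the male array, and their means differed by 0.25.

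Grhl1, a factor of skin and hair anchorage, had signals of 742 and 693 units in the control and Pparg-cKO female pools and 748 and 1078 units in the male pools. The Pparg-cKO male pool was high and the other 3 lay close together. The log2 ratios of -0.12 and 0.47 gave a mean of 0.18 ± 0.42 (SD, n = 2 arrays) and an adjusted p in limma of 0.873.

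Grhl3, the Grainyhead-like factor of umbrella cells, differed most between the arrays. Its signal was 2548 in the control female and 1975 in the Pparg-cKO female pool, and 2381 in the control male and 3564 in the Pparg-cKO male pool. The Pparg-cKO pools were the lowest and the highest of the 4, with the controls between them. The log2 ratio was -0.40 between the female pools and 0.56 between the male pools. The mean was 0.08 ± 0.68 (SD, n = 2 arrays), the 95% interval ran from -0.53 to 0.70, and the adjusted p in limma was 0.980. A change of Grhl3 common to both arrays was therefore not detectable within these bounds. On tissue sections at E18.5 the study detected no change of Grhl3 RNA and found the protein in luminal cells of both genotypes. The ratios lay 0.97 apart. The spots of the probe had an SD of 0.17 (female) and 0.05 (male), which covers error within an array and not the spread between pools. Seen by dye, the red channel was the lower one on both arrays, with log2 red over green ratios of -0.40 and -0.56. Whether sex, dye or array goes with the difference cannot be told apart. Of the 9 genes, 1 (Grhl3) was at least 1.2-fold higher on 1 array and lower on the other, a pattern of 1.38% of genes tested. In the deposited value table Ehf also had it, at 0.30 and -0.27.

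Ovol1 had nearly equal ratios on both arrays. Its signal was 27.4 and 33.2 units in the control and Pparg-cKO female pools and 33.9 and 38.5 units in the male pools. The Pparg-cKO pool lay above the control pool of the same array for each sex. The log2 ratios were 0.14 and 0.13, the mean was 0.14 ± 0.01 (SD, n = 2 arrays), and the adjusted p in limma was 0.816. Since limma shares the spread of all genes, the 95% interval still ran from -0.13 to 0.40. Ovol2, which is needed for early epithelial and neural tube development, gave 806 and 901 units in the female and 941 and 823 units in the male pools. Its log2 ratios were 0.11 and -0.19, with an adjusted p in limma of 0.982, and its pools were ordered as those of Ehf were within each sex.

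**Figure D2:**
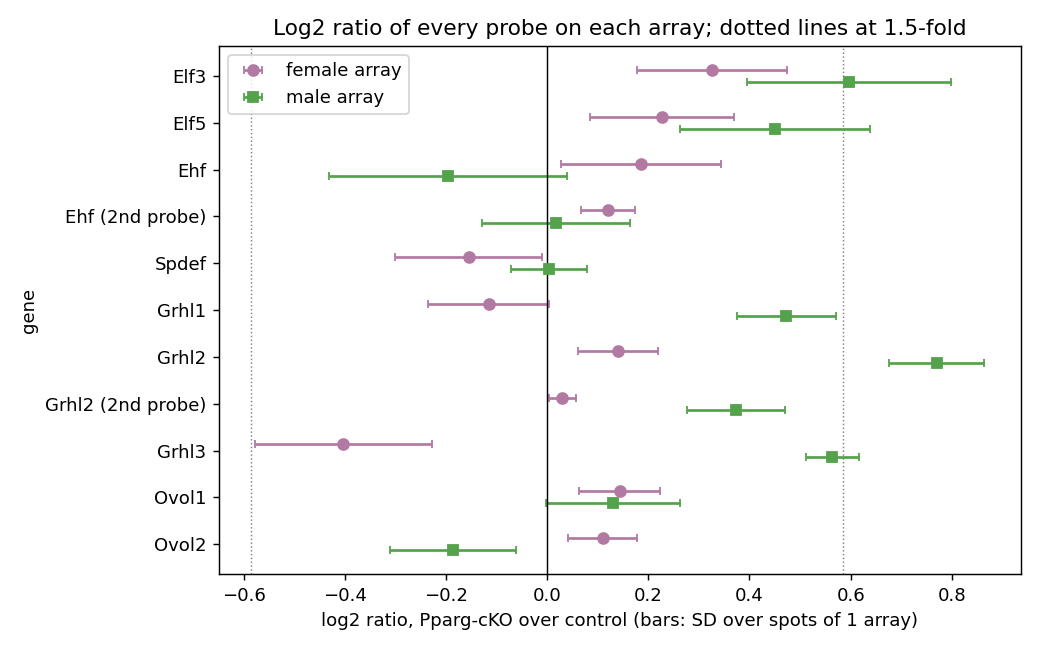
Log2 ratio of Pparg-cKO over control for every probe of the 9 factor genes on the female (circles) and the male array (squares), with bars of 1 SD over the spots of that probe on 1 array and dotted lines at 1.5-fold. Grhl2 and Elf3 pass the upper line on the male array only, and Grhl3 has its female value at -0.40 and its male value at 0.56.

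The factor genes thus differed in how far the arrays matched. The male ratio was above the female one for 6 of 9 genes, all but Ehf, Ovol1 and Ovol2. Over all genes tested the male ratio was the higher one in 55.2% and the lower one in 44.8%, and by the dye labels these shares, and the counts of 6 and 3, are exchanged. For the 3 Grainyhead-like genes the female median was -0.12 and the male median 0.56. For the 4 Ets genes it was 0.21 and 0.23, and for Ovol1 and Ovol2 it was 0.13 and -0.03. On the male array alone, Elf3 and Grhl2 were at least 1.5-fold higher, as were 6.70% of genes bright enough there. Grhl3 lay just below that line at 1.48-fold and Elf3 just above it, an order that turns with the processing. The male log2 ratio was 0.55 for Elf3 and 0.58 for Grhl3 with scanner-processed signals, and 0.56 and 0.59 in the deposited value table.

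**Figure D3:**
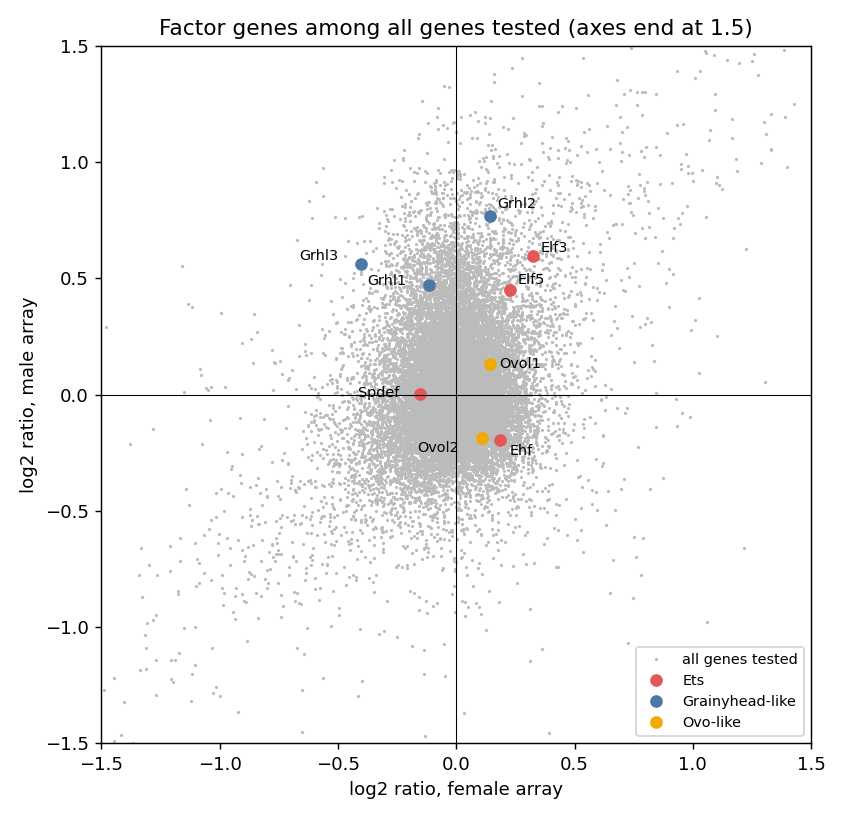
Log2 ratio on the female array (x axis) against the male array (y axis) for the 22499 genes tested (grey) and the 9 factor genes (coloured by family), with 117 genes beyond the axis limits of 1.5 not drawn. Grhl2 and Elf3 lie above 0 on both axes, and Grhl3 lies at -0.40 on the female and 0.56 on the male axis.

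**Figure D4:**
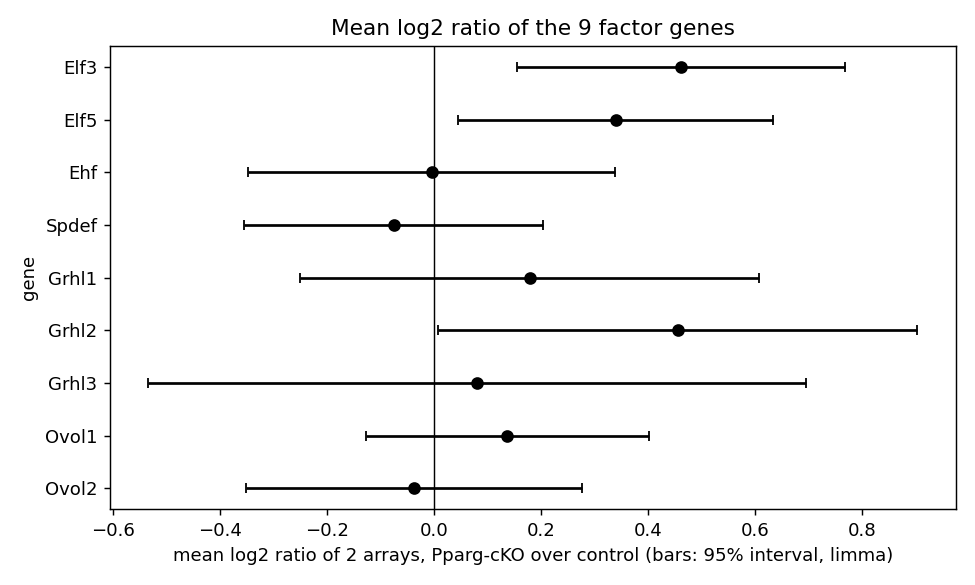
Mean log2 ratio of the 2 arrays for each factor gene, with the 95% interval of limma. The intervals of Elf3, Elf5 and Grhl2 lie above 0, before adjustment over all genes and with the processing used here, and that of Grhl3 is the widest.

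Further Ets factors and the CP2 branch gave no called gene. Of 22 further Ets factors 20 were tested and 0 passed, with a median mean log2 ratio of 0.08. Of these, 8 were higher on both arrays, 1 was lower on both and 11 were mixed. The largest mean was that of the repressor Erf, with ratios of -0.06 (female) and 0.61 (male). Elk3 had 0.03 and 0.48, and Ets2 had 0.03 and 0.47. Etv5, a target of FGF signalling, had -0.48 and 0.26. The CP2 branch of the Grainyhead superfamily, Tfcp2, Tfcp2l1 and Ubp1, had mean log2 ratios of 0.16, 0.19 and 0.13, and 0 of 3 passed.

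Grainyhead-like and epithelial Ets factors are known to act on genes of cell junctions and of the apical surface. Of 16 such genes, 1 passed the test: Cldn3, a claudin of tight junctions, was higher with log2 ratios of 2.09 and 2.39, or 4.73-fold, and an adjusted p of 0.00728 in limma. Cldn7 had 0.37 and 1.05, with an adjusted p of 0.340. Cdh1, which encodes E-cadherin of adherens junctions, had 0.07 and 1.10, with an adjusted p of 0.642. The tricellular junction gene Lsr had -0.05 and 1.33, with an adjusted p of 0.701. The male ratio was the higher one in 14 of the 16, beside 55.2% of all genes tested. The list had a female median of -0.01 and a male median of 0.49. The summed signal of the list was 15434 and 15432 units in the control and Pparg-cKO female pools, and 15334 and 23523 units in the male pools. The summed signal, in which bright probes weigh most, was high in the Pparg-cKO male pool. So were the signals of Grhl1, Grhl2 and Grhl3, but not every junction gene had this order. Prss8, at 409 units, and Ap1m2, at 422 units, were lowest in that pool, and Cldn4 had 965 units in the control and 914 units in the Pparg-cKO male pool. The part of these genes in the values of the factor genes was not tested.

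Epithelial splicing and matriptase genes of the same list had ratios of mixed sign. Esrp1 had log2 ratios of 0.12 and 0.50, and Esrp2, its paralogue, had -0.52 and 0.34. The protease gene St14 had 0.15 and 1.03, while its inhibitors Spint1 and Spint2 had -0.55 and 0.05, and -0.13 and 0.82. Epcam, which encodes an adhesion protein of epithelial cells, had 0.41 and 0.48, with an adjusted p of 0.273 in limma.

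Genes of the skin barrier, a known process of Grhl3, had no common direction. Of 10 listed 8 were tested, and no probe was found under the name Flg. Ivl, a precursor of the cornified envelope, was lower at 3.41-fold with an adjusted p of 0.0116 in limma. Lor, another envelope protein, had log2 ratios of 1.14 and 1.82 and an adjusted p of 0.0580. Tgm1, which crosslinks the envelope, had -0.10 and 0.14. The median over the 8 was 0.03.

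Of the terminal differentiation genes of the urothelium, some are known to depend on Grhl3 in the bladder. All 7 listed were lower on both arrays, with a median mean log2 ratio of -1.02, and 2 passed the test. The study reported part of this list from these same arrays, so that its direction is not independent evidence. Krt20, a keratin of umbrella cells, had log2 ratios of -3.14 and -3.03, with an adjusted p of 0.00620 in limma. Upk3b, which encodes a uroplakin, had -1.70 and -1.65, with an adjusted p of 0.00884. Upk2 had -0.74 and -0.28 with an adjusted p of 0.390, and Snx31, a sorting nexin, had -0.73 and -0.25 with an adjusted p of 0.436. The summed signal was 78366 and 45536 units in the control and Pparg-cKO female pools and 68255 and 50066 units in the male pools. Grhl3, in the same pools, had the opposite signs on the arrays given above.

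Mesenchymal transition genes, which Ovol and Grainyhead-like factors are known to hold back, gave 0 of 9 passing, with a median of 0.10. Zeb1, a repressor of E-cadherin and a known partner of Grhl2 in mutual repression, had log2 ratios of -0.000782 and 0.12. Twist1 had -0.08 and -0.13, and Fn1, which encodes fibronectin, had 0.05 and 0.76.

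**Figure D5:**
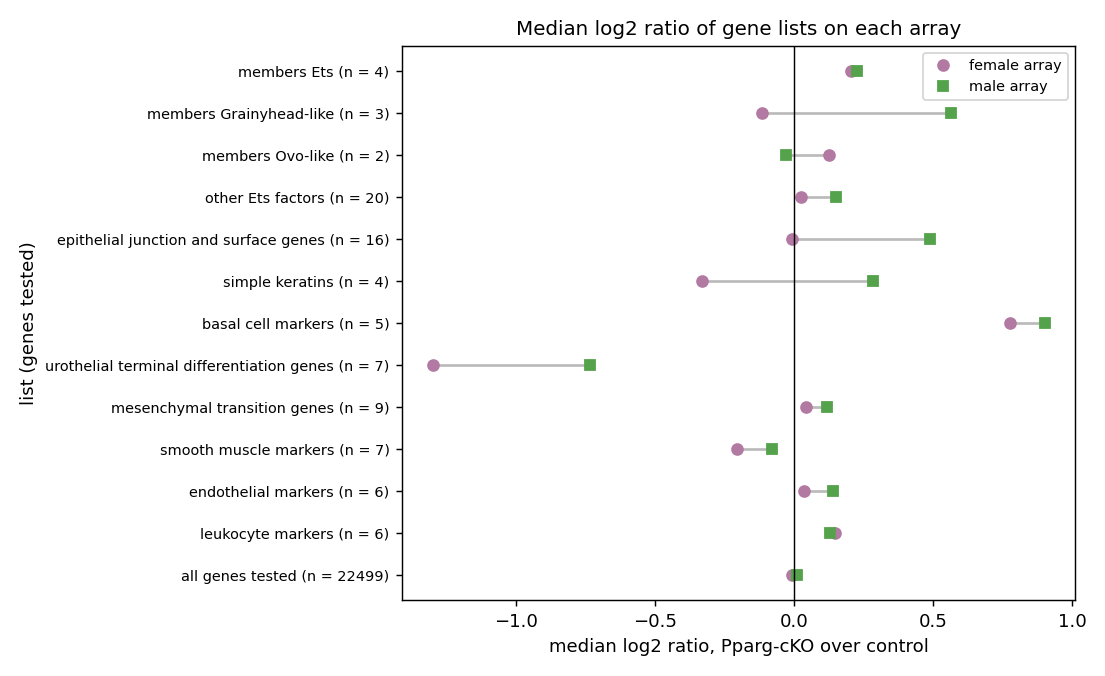
Median log2 ratio, Pparg-cKO over control, of the 3 factor families and of further gene lists on the female (circles) and the male array (squares), with the number of genes tested in brackets and grey lines joining the arrays. Grainyhead-like genes and epithelial junction genes share a male median near 0.5 with a female median at or below 0, and urothelial terminal differentiation genes lie below 0 on both arrays.

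Markers of the tissue were given beside these values. Smooth muscle, the main wall tissue, had summed signals of 118032 and 106506 units in the control and Pparg-cKO female pools and 119467 and 105604 units in the male pools, with 0 of 7 markers passing. The simple keratins Krt7, Krt8, Krt18 and Krt19 summed to 44652 and 36840 units in the female and 37712 and 48382 units in the male pools. That sum joins members of opposite sign: Krt18 had log2 ratios of -1.04 and -0.54 and Krt19 had 0.71 and 1.29, while Krt7 had -0.38 and 0.05 and Krt8 had -0.28 and 0.52. Basal cell markers gave 2 of 5 passing, Krt14 and Krt15, both higher. Krt17 had log2 ratios of 0.78 and 0.90, Trp63 had -0.53 and -0.44, and Krt5 had -0.86 and 0.35. Collecting duct markers, a tissue in which the cre is active too, summed to 1852 and 2270 units in the female and 1826 and 4355 units in the male pools. Within that list Gata3, a factor gene also known from urothelium, had 1611 and 1551 units in the female and 1560 and 3531 units in the male pools. Fxyd4, which passed the test as higher, had 77.4 and 536 units in the female and 109 and 596 units in the male pools. The collecting duct water channel gene Aqp2 had log2 ratios of -0.12 and -0.17. Endothelial and leukocyte lists had 0 of 6 passing each, and epidermal keratins 0 of 3 tested. The part of these markers in the values of the factor genes was not tested.

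Genes with the pattern most like a factor gene were sought by distance over the 2 log2 ratios, for the gene with the largest mean in each family as processed here. Nearest to Elf3 were Timeless at 0.0107, Stx19 at 0.0165 and Klf4 at 0.0175. Nearest to Grhl2 were Nrxn2 at 0.0232, Sipa1l3 at 0.0253 and Tmem184b at 0.0290. Nearest to Ovol1 were Smc1a at 0.00424, Vsig10l at 0.00457 and H2-Ob at 0.00461. With 2 ratios per gene, such likeness is a description of these arrays.

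Promoter windows from 250 bases before to 50 bases after the start (RefSeq, GRCm38.p6) were found for 6 of the 9 genes, 8 windows in all. Windows were searched on both strands for AACCGGTT, the Grainyhead palindrome, which 0.146% of 32851 windows held, and for its looser form AACNGGTT, held by 2.09%. They were also searched for the Ets core CCGGAA, held by 14.9%, the Ovo core CCGTTA, held by 2.76%, the PPAR motif AGGTCA, held by 16.3%, and 2 copies of it in direct repeat with 1 base between, held by 0.0396%. None of the 8 windows held any of these letters.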

How the data were processed

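The authors amplified and labelled RNA of each pool and scanned both arrays, which lay on 1 slide. Per the file headers, the deposited scanner files (Agilent Feature Extraction 10.7.3.1) held spot intensity on a linear scale, as mean signal, median background and a processed signal, beside flags for other spot properties. The deposited value table held a signed fold score per probe; it was used for direction and as an alternative.

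Each array held 157716 spots that were not controls, with 4 spots per probe. Outlier flags removed 2.87% (female) and 3.24% (male) of them, and 0 were saturated. Of spots, 66.2% to 77.3% were well above background, and median channel signals were 293 to 334. Mean signals were corrected with normexp (offset 50) and normalised by loess in limma 3.58.1 under R 4.3.3. Kept spots of a probe were averaged, and the brightest probe stood for a gene. Genes entered the test in limma if the scanner called their probe above background in 1 channel or more of each array. The test was two-sided, with Benjamini-Hochberg adjustment; 1 residual and 4 prior degrees of freedom were available per gene, and the number of arrays limits the precision. The code was tested on simulated data. Nothing names the embryos of a pool, so p-values measure the spread between these 2 arrays. Named were the 9 genes, the called or 2 to 4 largest members of fixed lists and the 3 nearest patterns per family; further list members were picked for known links to the factors after their values were seen. Members and lists were chosen with earlier results of these data known. Alternatives were other background corrections, median centring, other probe summaries, no filter, the deposited table and each array alone. The values of 1 gene of the junction list are not reported here.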

Additional observations from a re-analysis of the deposited data

Results flagged for a closer look

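Among 116 genes of the lists compared, 4 were at least 1.2-fold changed on both arrays in opposite directions. Over all genes tested the share with this pattern was 1.38%. Each of the 4 was lower in the Pparg-cKO female and higher in the Pparg-cKO male pool. The log2 ratio of the male array exceeded that of the female array by 0.97 for Grhl3, by 0.86 for Esrp2, an epithelial splicing factor, by 1.203 for Krt5, a basal cell keratin, and by 0.80 for Krt8, a keratin of luminal cells. With 1 array per sex these differences were not tested, and sex, dye orientation and array cannot be told apart.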

How the results depend on the processing

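No factor gene passed the limma test under any of the 6 alternatives with a test. The adjusted p ranged from 0.216 to 0.730 for Elf3, from 0.341 to 0.973 for Grhl2 and from 0.238 to 1.00 for Elf5. The number of all genes called was 571 with normexp and no offset, 94 without the filter on dim probes and 0 with the deposited table, where 2101 had an unadjusted p under 0.05. Elf3, Elf5, Grhl2 and Ovol1 kept their direction throughout. The mean log2 ratio of Ehf changed sign to 0.0207 with scanner-processed signals, 0.0742 with median centring, 0.0319 with the median over all probes, 0.0175 in the deposited table and 0.0687 with its upstream probe alone. That of Ovol2 became 0.0399 with median centring, which raised the male median of all genes to 0.10 and the share of genes higher by the fold rule from 43.0% to 53.0%. With each array alone, Ehf ranged from -0.20 to 0.19, Spdef from -0.16 to 0.00348, Grhl1 from -0.12 to 0.47, Grhl3 from -0.40 to 0.56, Ovol2 from -0.19 to 0.11 and the median of the 9 genes from 0.14 to 0.45. Factor genes past the fold rule then numbered 0 to 2 and all genes 444 to 1253, the higher values without replicate 1. The cause of these changes was not tested. The slide as a block was not run, as both arrays shared it. No paired analysis was possible because each array already pairs 1 Pparg-cKO pool with 1 control pool. The dim genes moved with the background correction: with scanner-processed signals the mean log2 ratio was 0.53 for Elf5, -0.17 for Spdef and 0.23 for Ovol1.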
